A study of Mus musculus with 6 samples.

Results

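The genes described here are 33 genes of the cell cycle, the set by which hepatocyte proliferation is usually followed: 15 genes of S phase and its start, 14 mitotic genes, the D cyclins *Ccnd1* and *Ccnd2*, and the cyclin-dependent kinase (CDK) inhibitors *Cdkn1a* and *Cdkn1b*. A gene was taken up when a non-control probe of the array carried a RefSeq accession of that gene. All 33 were found among the 37074 genes on the array, where each probe name matched to no symbol also counts as a gene. Liver RNA was measured in male mice of 2 genotypes, with 3 arrays each. L1-Tg mice are hemizygous for a transgene in which the APOE promoter drives human NPC1L1, a cholesterol transporter, in hepatocytes, and they come from 1 transgenic line backcrossed to C57BL/6J for at least 8 generations. WT mice were their littermates without the transgene, and both groups were fed a control fat diet (CFD), per the study's methods at an age between 6 and 12 weeks. Each array held RNA pooled from 2 or 3 mice, and the samples are called pools 1 to 3 of each genotype, which leaves the variation between single animals unmeasured. In whole liver, fewer cells of a type and less RNA per cell cannot be told apart.

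Most hepatocytes of an adult liver rest outside the cell cycle and can return to it when liver mass is lost. On the way back, D cyclins and their kinases release the E2F factors from the retinoblastoma protein, E2F drives the genes of DNA replication, and a later wave of genes, bound by the DREAM and FOXM1 complexes, carries the cell through mitosis. The inhibitors p21 (*Cdkn1a*), a target of p53, and p27 (*Cdkn1b*) hold the cyclin-CDK complexes in check.

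Signals are given as log2 of the processed intensity minus the log2 of the 75th percentile of the array, so 0 is the signal at that percentile. Differences are L1-Tg minus WT on this scale, tested with limma across 22336 genes. Levels were not compared between genes, since every probe has its own response. The arrays correlated at 0.985 to 0.994 within a genotype and at 0.979 to 0.992 between genotypes. The 6 arrays shared 1 slide on which row 1 held WT and row 2 held L1-Tg, and the effects of row and genotype cannot be told apart.

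No cell cycle gene differed between L1-Tg and WT livers past the threshold. The RNA of 27 of the 33 genes could be tested, each of them measured above background on all 6 arrays. Of these 27 genes, 0 had an adjusted p under 0.05 in limma, against 31 of all 22336 genes (0.139%), and their adjusted p ran from 0.543 for *Cdkn1a* to 0.995 for *Ccnd1*. An unadjusted p under 0.05 was reached by 1 gene, *Cdkn1a*, against 8.74% of all genes in either direction and 4.92% with the higher level in L1-Tg. In 0 of the 27 genes were all pools of one genotype above all pools of the other, against 15.6% of all genes (7.8% with L1-Tg above WT). By the difference index of the study's methods, which divides the difference of the group means by the sum of the group SDs, 2 genes lay past the modulus of 0.7, *Cdkn1a* at 0.93 and *Cdt1* at -0.90, against 25.9% of all genes. The mean was higher in L1-Tg in 16 genes and lower in 11, where 45.7% of all genes had the higher mean in L1-Tg, and the median difference of the 27 genes was 0.06 beside -0.02 for all genes tested.

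The S-phase, mitotic and inhibitor genes did not share a direction. Of the 13 S-phase genes tested, 10 had the higher mean in L1-Tg and 3 the lower, with a median difference of 0.11. Of the 10 mitotic genes tested, 4 had the higher mean in L1-Tg and 6 the lower, with a median of -0.06. The D cyclins and the inhibitors each had 1 gene on either side. The medians of the S-phase and the mitotic genes lay within the spread between pools, since the SD of the list's median among pools of a genotype was 0.26 for the S-phase and 0.36 for the mitotic genes.

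**Figure D1:**
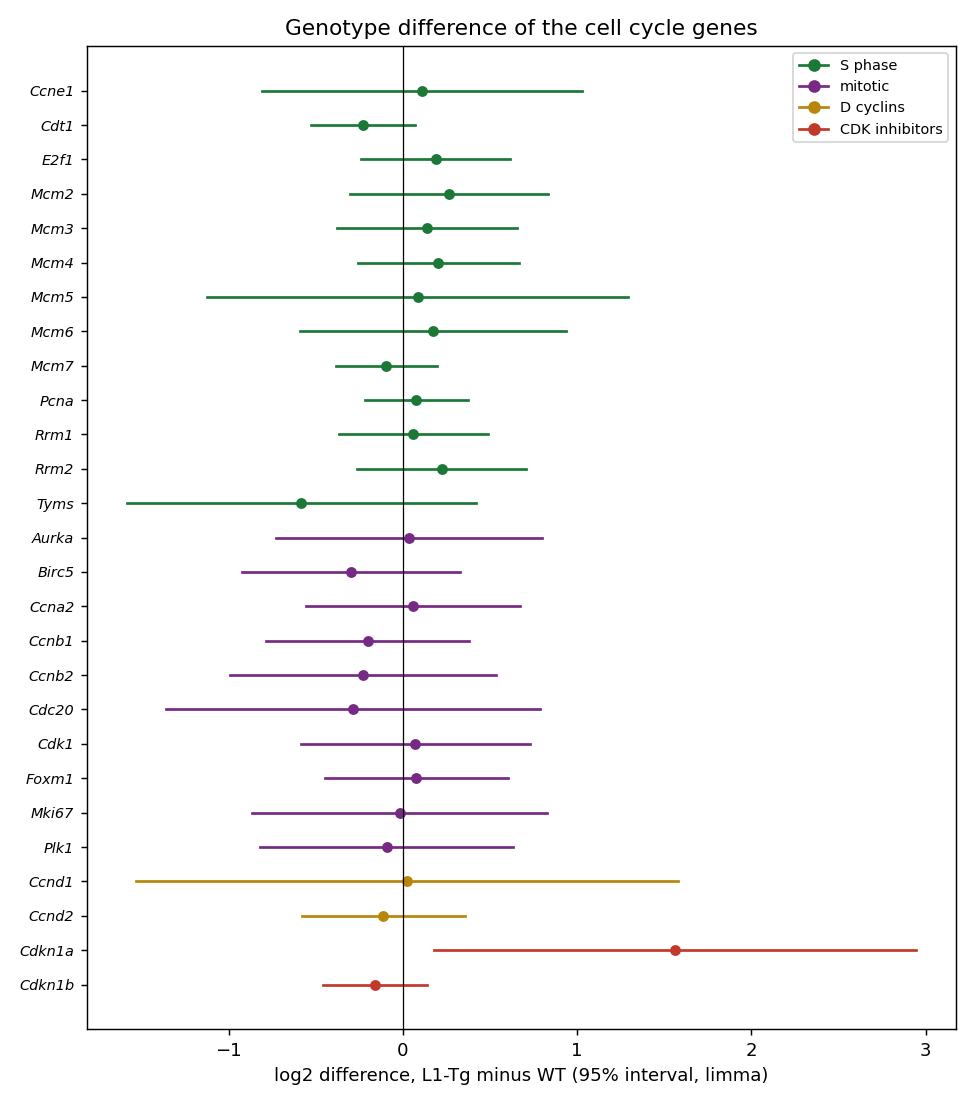
Difference in log2 signal between L1-Tg and WT (L1-Tg minus WT, x axis) for the 27 cell cycle genes tested (y axis); points are the limma estimates from 3 pools per genotype and lines their 95% intervals, coloured by role. Only the interval of *Cdkn1a*, from 0.18 to 2.94, lies on one side of 0, and the intervals of *Ccnd1* (-1.53 to 1.58) and *Mcm5* (-1.12 to 1.29) are among the widest.

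*Cdkn1a*, which encodes the CDK inhibitor p21, had the largest difference of the 27 genes. Its log2 signals were -0.51, -0.24 and -0.93 in L1-Tg pools 1, 2 and 3, and -2.81, -2.82 and -0.74 in the WT pools. All 3 L1-Tg pools were high, WT pools 1 and 2 were low, and WT pool 3 lay inside the range of the L1-Tg pools. The difference was 1.56 with an SE of 0.57, or 2.95-fold, with an unadjusted p of 0.0323 and an adjusted p of 0.543 in limma. With any 1 pool left out it ranged from 1.21 to 2.25, with an adjusted p in limma from 0.0490 to 0.951. The 2.25 and the 0.0490 came from leaving out WT pool 3, the WT pool inside the L1-Tg range. With a normexp background correction the difference was 0.89. A further probe of the gene, named by a different transcript accession, was not well above background on any array.

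The macrophage markers of these livers, taken as a sum, were also lowest in WT pools 1 and 2, though not every single marker was. Of 9 markers, 8 could be matched to the array and all 8 were tested. Their summed level, in multiples of the 75th percentile, was 203, 173 and 191 in L1-Tg pools 1 to 3 and 109, 145 and 201 in the WT pools, so WT pool 3 again lay among the L1-Tg pools. Without the brightest marker, *Cd5l*, the sum was 135, 116 and 122 against 79.2, 107 and 139, with WT pool 3 the highest. The mean of all 8 was higher in L1-Tg (45.7% of all genes), with a median difference of 0.32. In limma, 1 of them had an unadjusted p under 0.05 (4.92% of all genes, higher in L1-Tg) and 0 passed the adjusted threshold. In 0 of the 8 were all L1-Tg pools above all WT pools (7.8% of all genes). *Cd5l*, a secreted macrophage protein, was at 6.09, 5.82 and 6.11 against 4.92, 5.23 and 5.94, whereas *Csf1r*, the receptor of the macrophage growth factor CSF1, was at 5.65, 5.57 and 5.54 against 5.20, 5.67 and 5.74. The part of these cells in the signal of *Cdkn1a* was not tested.

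*Cdkn1b*, which encodes p27, was at 1.92, 2.08 and 1.92 in the L1-Tg pools and at 2.29, 1.93 and 2.19 in the WT pools. The pools overlapped, with WT pool 2 at the level of the L1-Tg pools, and the difference was -0.16 (SE 0.12, adjusted p = 0.701 in limma). Its 95% interval ran from -0.46 to 0.14. Of 5 other CDK inhibitors, 3 could be tested, with 2 means higher in L1-Tg, 1 lower and a median of 0.02. The INK4 inhibitor *Cdkn2d* was at 0.48, 0.75 and 0.76 against 0.77, 0.71 and 0.90, *Cdkn2c* differed by 0.19 and *Cdkn1c*, which encodes p57, by 0.02.

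p53 and its target genes were listed because *Cdkn1a* is one of them. Of 22 genes on that list, 20 were tested, and 14 had the higher mean in L1-Tg and 6 the lower, with a median difference of 0.23. In 5 the unadjusted p was under 0.05 with the higher mean in L1-Tg (4.92% of all genes), in 6 all L1-Tg pools lay above all WT pools (7.8% of all genes), and 9 lay past the difference index, all higher in L1-Tg (25.9% of all genes in either direction). None passed the adjusted threshold in limma. Of the 20 genes, 19 were well above background on all 6 arrays. The exception was *Pmaip1*, which counts among the 5 and the 9. Only 2 arrays of WT detected it, so it passed the filter through L1-Tg alone, and its difference rests partly on a dim WT signal. *Phlda3*, an inhibitor of AKT signaling, was at -0.26, -0.28 and -0.01 in the L1-Tg pools and at -0.84, -1.24 and -0.74 in the WT pools, without overlap (difference 0.76, SE 0.16, adjusted p = 0.326). *Aen*, an exonuclease of apoptosis, was at 4.29, 4.26 and 4.25 against 3.49, 3.83 and 3.84 (adjusted p = 0.341). *Ccng1*, the p53-induced cyclin G1, stood at 1.06 in each L1-Tg pool and at 0.46, 0.57 and 0.89 in the WT pools (adjusted p = 0.489). These 3 genes were named for having the smallest p of the list. As a median over the 20 genes, the signal stood 0.09, 0.15 and 0.10 from the mean of the 6 arrays in the L1-Tg pools. It stood at -0.13, -0.23 and 0.06 in the WT pools. By this median WT pools 1 and 2 were low, and WT pool 3 was nearer to L1-Tg. In *Phlda3*, *Aen* and *Ccng1*, however, WT pool 3 lay below every L1-Tg pool. The order was described after the values had been seen, and a link to *Cdkn1a* or the macrophage markers was not tested. WT pool 3 was the highest WT pool in 11 of the 20 genes, against 30.0% of all genes tested.

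*Ccnd1*, cyclin D1, is the cyclin by which hepatocytes usually pass from rest into G1. It was at 1.66, 1.68 and 3.20 in the L1-Tg pools and at 3.37, 1.85 and 1.25 in the WT pools. One pool of each genotype, L1-Tg pool 3 and WT pool 1, stood more than 1 log2 unit above the others, and the remaining 4 pools overlapped. The group means were nearly equal (difference 0.02, SE 0.65), and the spread within a genotype was larger than in 98.8% of all genes tested. *Ccnd2*, cyclin D2, was at -0.38, -0.18 and 0.00 against 0.09, 0.15 and -0.46, with a difference of -0.11 (SE 0.19).

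**Figure D2:**
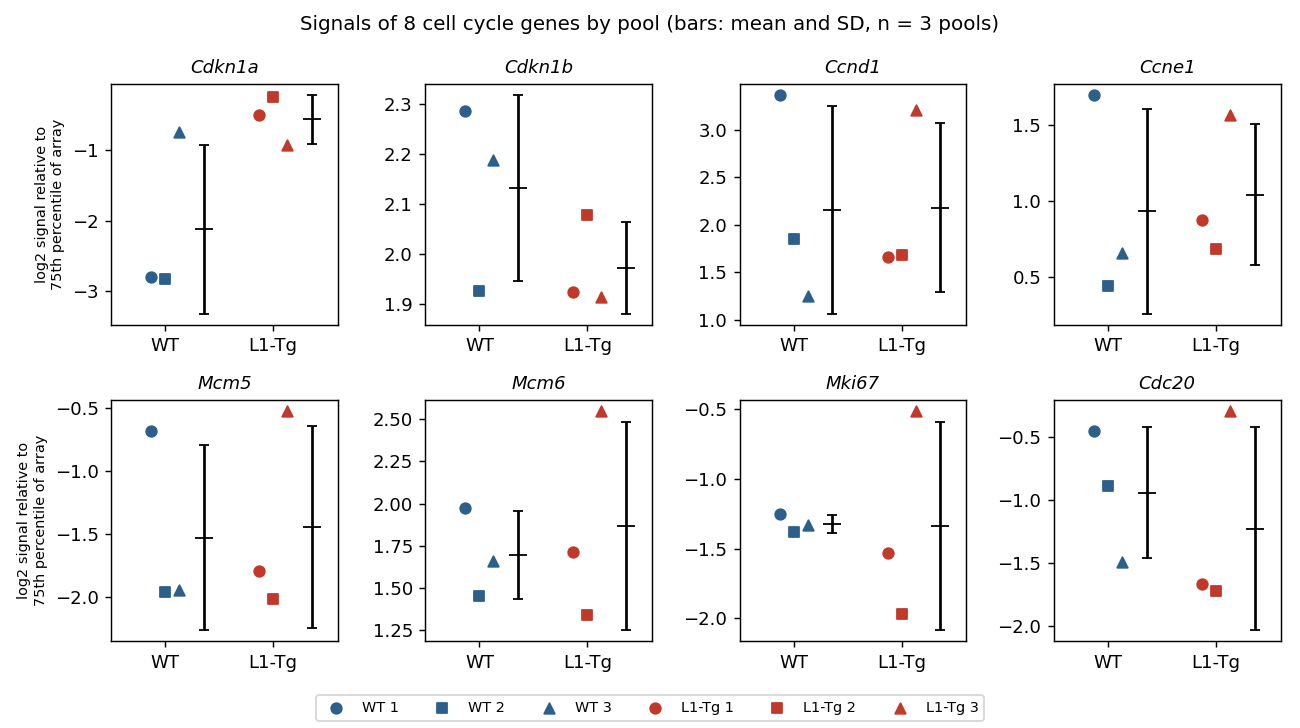
Log2 signal relative to the 75th percentile of the array (y axis) in the 3 WT and 3 L1-Tg pools (x axis) for 8 cell cycle genes; the bars beside the points are the mean and SD of 3 pools, and each panel has its own y range. *Cdkn1a* is low in WT pools 1 and 2 only, and L1-Tg pool 3 and WT pool 1 are the highest of their genotype in *Ccnd1*, *Ccne1*, *Mcm5*, *Mcm6*, *Mki67* and *Cdc20*.

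The S-phase genes begin with the MCM helicase, whose subunits are loaded on DNA before replication. *Mcm5* was at -1.79, -2.01 and -0.52 in the L1-Tg pools and at -0.68, -1.96 and -1.94 in the WT pools. *Mcm6* was at 1.71, 1.34 and 2.55 against 1.98, 1.45 and 1.66. In both subunits L1-Tg pool 3 was the highest of its genotype and WT pool 1 the highest of its own, so the groups overlapped fully, with differences of 0.09 (SE 0.50) and 0.17 (SE 0.32). *Mcm2* was at -1.77, -1.74 and -1.28 against -1.40, -2.05 and -2.13. *Mcm3* was at 0.18, -0.03 and 0.58 against 0.43, -0.18 and 0.06, and *Mcm4* at 0.21, 0.17 and 0.69 against 0.44, -0.04 and 0.06. These 3 subunits had the same highest pools, and their differences of 0.26, 0.14 and 0.20 had adjusted p between 0.735 and 0.850 in limma. *Mcm7* varied less, between 1.79 and 2.12 over the 6 pools, with a difference of -0.10 and a 95% interval from -0.39 to 0.19.

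The promoters of *Mcm5* and *Mcm6* are shown because both genes had the same pools on top and both hold the letters to which E2F factors bind. The sequences are the 250 bases before the start of the gene in RefSeq (build GRCm38.p6, while the array was annotated on mm9), written 5′ to 3′ on the strand of the gene, with E2F motifs in capitals. The window of *Mcm5* lies at chr8:75109259-75109508 on the plus strand and that of *Mcm6* at chr1:128359706-128359955 on the minus strand. In each, a pair of motifs on opposite strands overlaps and forms 1 capital run.
Mcm5: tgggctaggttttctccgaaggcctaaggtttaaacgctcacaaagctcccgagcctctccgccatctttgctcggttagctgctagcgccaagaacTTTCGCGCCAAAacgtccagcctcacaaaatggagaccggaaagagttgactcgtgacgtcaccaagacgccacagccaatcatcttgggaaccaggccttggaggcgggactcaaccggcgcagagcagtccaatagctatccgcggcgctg
Mcm6: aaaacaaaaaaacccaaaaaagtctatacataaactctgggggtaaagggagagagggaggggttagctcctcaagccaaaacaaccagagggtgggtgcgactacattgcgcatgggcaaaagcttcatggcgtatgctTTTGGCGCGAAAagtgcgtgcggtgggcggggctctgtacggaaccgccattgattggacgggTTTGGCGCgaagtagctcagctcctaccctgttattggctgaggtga

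The letters searched for E2F were TTTCCCGC, TTTCGCGC, TTTGCCGC and TTTGGCGC on both strands, in windows from 250 bases before to 50 after the start. Of all 32851 windows, 2.26% held at least 1 of them. A window was found for 26 of the 33 genes, and E2F letters stood in 6 of the 13 S-phase genes with a window (*Cdc6*, *Cdt1*, *Mcm3*, *Mcm5*, *Mcm6* and *Mcm7*) and in 1 of the 11 mitotic genes (*Cdk1*). No window was found for *Aurkb*, *Ccna2*, *Ccnd1*, *Ccnd2*, *Ccne2*, *Foxm1* or *Mcm4*. The letters and the order of the pools did not go together in every S-phase gene. *Cdt1* and *Mcm7* held E2F letters but did not have L1-Tg pool 3 and WT pool 1 both highest of their genotype. *Mcm2*, *Pcna*, *Rrm1*, *Ccne1* and *E2f1* had these pools highest and held no E2F letters in their windows. A link between the letters and the pools was not tested. A match is a description of the letters and not a measured site.

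*Cdt1* and *Cdc6* load the MCM helicase. *Cdt1* was at 1.54, 1.52 and 1.44 in the L1-Tg pools and at 1.73, 1.53 and 1.92 in the WT pools, so the L1-Tg pools lay close together and WT pool 2 lay among them. The difference was -0.23 (SE 0.12, adjusted p = 0.629 in limma, 95% interval -0.53 to 0.07), and its SD was 0.06 in L1-Tg and 0.20 in WT. *Cdc6* was not well above background on any array with either of its probes. *E2f1*, an E2F factor itself, was at -0.71, -0.75 and -0.25 against -0.60, -0.68 and -0.99, with a difference of 0.19.

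*Ccne1*, cyclin E1, starts S phase with its kinase CDK2. It was at 0.87, 0.68 and 1.56 in the L1-Tg pools and at 1.70, 0.44 and 0.66 in the WT pools, with the same highest pools as cyclin D1 and a difference of 0.11 (SE 0.38). A dimmer probe of the gene, well above background on 4 arrays, had L1-Tg pool 3 and WT pool 1 highest as well, at -3.08 and -3.13. *Ccne2*, cyclin E2, was not well above background on any array.

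The polymerase clamp *Pcna* and the enzymes that make deoxynucleotides complete the S-phase genes. *Pcna* was at 3.02, 3.06 and 3.13 in the L1-Tg pools and at 3.16, 2.78 and 3.03 in the WT pools. The difference of 0.08 had a 95% interval from -0.22 to 0.37, among the narrowest of the 27 genes. The ribonucleotide reductase subunit *Rrm1* was at 0.31, 0.40 and 0.77 against 0.65, 0.17 and 0.48, and *Rrm2* at -0.15, -0.23 and 0.48 against -0.19, -0.31 and -0.07. L1-Tg pool 3 was the highest of its genotype in both subunits, and their differences were 0.06 and 0.22.

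*Tyms*, thymidylate synthase, was the S-phase gene with the largest difference, and it did not follow the other genes. It was at -1.29, -1.65 and -1.95 in the L1-Tg pools and at -1.62, -0.09 and -1.43 in the WT pools, so L1-Tg pool 3 was the lowest pool and WT pool 2 alone was high. The difference was -0.58 (SE 0.42, adjusted p = 0.687 in limma). Among the markers of other blood cells, *Cd4*, a T cell coreceptor, and *Elane*, the granulocyte elastase, were also highest in WT pool 2. *Cd4* was at 7.90 there and between 6.40 and 7.36 elsewhere, and *Elane* at 6.14 there and between 4.12 and 4.43 elsewhere. Each was the single gene of its list with that highest pool, 1 of 9 lymphocyte markers and 1 of 7 erythroid and granulocyte markers tested. The summed level of the lymphocyte markers was 118, 118 and 100 in the L1-Tg pools and 182, 258 and 111 in the WT pools, and without *Cd4* it lay between 16.1 and 19.0 in all 6 pools. The summed erythroid and granulocyte markers ranged from 43.7 to 50.1 in the L1-Tg pools and from 41.9 to 93.6 in the WT pools, and without *Elane* WT pool 2 was at 22.9, within the range of 21.1 to 32.7 of the other pools. *Cd8a* was well above background in 3 of the L1-Tg pools and in 0 of the WT pools, so it passed the filter through L1-Tg alone. Its signals were dim and overlapped, at -4.13, -4.01 and -4.01 in the L1-Tg pools and -3.90, -4.58 and -6.41 in the WT pools. The part of these cells in the signal of *Tyms* was not tested.

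The mitotic genes include *Mki67*, which encodes the proliferation antigen Ki-67, and *Cdk1*, the kinase that starts mitosis. *Mki67* was at -1.53, -1.97 and -0.51 in the L1-Tg pools and at -1.25, -1.38 and -1.33 in the WT pools. The WT pools lay within an SD of 0.07 and the L1-Tg pools on both sides of them, with an SD of 0.75, so the means were nearly equal (difference -0.02, 95% interval -0.86 to 0.83). The other *Mki67* probe gave the same order among the L1-Tg pools, at -1.84, -2.31 and -0.67, and a difference of 0.03. *Cdk1* was at -2.13, -2.55 and -1.58 against -2.12, -2.47 and -1.88, with a difference of 0.07. Its dimmer probes were each well above background on 2 arrays, and no difference is given for them.

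*Cdc20*, an activator of the anaphase-promoting complex, had the widest spread of the mitotic genes. It was at -1.67, -1.72 and -0.30 in the L1-Tg pools and at -0.45, -0.89 and -1.49 in the WT pools, with a difference of -0.28 (SE 0.45). The cyclin B genes partner CDK1. *Ccnb2* was at -0.98, -1.01 and -0.13 against -0.03, -0.92 and -0.47, and *Ccnb1* at -3.07, -3.30 and -2.38 against -2.60, -2.67 and -2.87. Cyclin A2, encoded by *Ccna2* and active in S phase and G2, was at -2.63, -2.74 and -2.21 against -2.14, -2.57 and -3.04. In all 3 cyclins L1-Tg pool 3 and WT pool 1 were the highest of their genotype, and the differences of -0.23, -0.20 and 0.06 had adjusted p between 0.803 and 0.954 in limma.

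The promoters of *Cdk1*, *Mki67* and *Cdc20* are shown because they hold the CHR letters TTTGAA, by which the DREAM complex binds mitotic genes. They lie at chr10:69352913-69353162, chr7:135716380-135716629 and chr4:118437344-118437593, all on the minus strand, and capitals mark the CHR letters on the strand shown and, in *Cdk1*, the E2F letters TTTCGCGC.
Cdk1: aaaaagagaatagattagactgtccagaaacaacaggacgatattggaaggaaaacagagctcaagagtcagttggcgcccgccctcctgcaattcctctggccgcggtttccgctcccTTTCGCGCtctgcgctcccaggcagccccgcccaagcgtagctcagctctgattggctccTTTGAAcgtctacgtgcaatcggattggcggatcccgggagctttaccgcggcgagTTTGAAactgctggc
Mki67: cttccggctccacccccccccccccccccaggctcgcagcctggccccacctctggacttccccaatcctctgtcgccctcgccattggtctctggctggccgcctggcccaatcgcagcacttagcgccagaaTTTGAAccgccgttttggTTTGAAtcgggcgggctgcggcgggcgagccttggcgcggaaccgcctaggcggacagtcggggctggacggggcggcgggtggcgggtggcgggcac
Cdc20: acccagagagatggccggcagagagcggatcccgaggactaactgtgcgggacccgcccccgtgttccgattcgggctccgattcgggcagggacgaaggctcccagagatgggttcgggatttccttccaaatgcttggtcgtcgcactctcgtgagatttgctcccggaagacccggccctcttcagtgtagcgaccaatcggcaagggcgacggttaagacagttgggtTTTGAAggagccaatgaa

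On both strands, CHR letters stood in 8 of the 11 mitotic genes with a window (*Aurka*, *Bub1b*, *Ccnb2*, *Cdc20*, *Cdk1*, *Mki67*, *Plk1* and *Top2a*) and in 1 of the 13 S-phase genes (*Mcm2*), where 17.89% of all windows held them. The letters CCAAT, the box bound by NF-Y, stood in 10 of the 11 mitotic genes, in 8 of the 13 S-phase genes and in *Cdkn1b*, against 37.41% of all windows.

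*Plk1* and *Aurka* encode kinases of spindle assembly, and *Birc5* encodes survivin, a partner of Aurora B. *Plk1* was at -2.40, -1.72 and -1.24 in the L1-Tg pools and at -1.41, -1.82 and -1.86 in the WT pools. *Aurka* was at -2.29, -2.05 and -1.52 against -1.45, -2.53 and -1.98. Both kinases had L1-Tg pool 3 and WT pool 1 highest, with differences of -0.09 and 0.03. *Birc5* was at -0.29, -0.26 and 0.62 against 0.34, 0.15 and 0.47, where L1-Tg pool 3 was highest and WT pool 3 was the highest of the WT pools. Its difference of -0.30 (SE 0.26, adjusted p = 0.730 in limma) was that of the brightest of 3 probes. A dimmer probe above background on all arrays gave -0.47, and the dimmest was detected in 2 pools of L1-Tg and 0 of WT, so no difference is given for it. *Foxm1*, the transcription factor of the mitotic wave, was at -2.88, -2.88 and -2.27 against -2.51, -2.71 and -3.05 (difference 0.08).

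A further 4 mitotic genes were too dim to test. *Top2a*, the topoisomerase that untangles chromosomes, was detected above background in pools 1 and 3 of L1-Tg and in 0 of WT. Its measured signals were -4.00, -5.03 and -3.42 in the L1-Tg pools and -4.71, -4.67 and -4.20 in the WT pools, and no fold is given because the mean of the L1-Tg pools did not exceed the limit of detection in the WT pools. *Bub1b*, a kinase of the spindle checkpoint, was detected in pools 1 and 3 of L1-Tg, at -4.32 and -4.15, and in pool 2 of WT, at -3.00. *Bub1*, its relative in the same checkpoint, and *Aurkb*, Aurora B kinase, were not well above background on any array.

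Across the 27 genes the pools of a genotype differed from each other more than the genotypes did. The SD within a genotype exceeded the size of the difference in 24 of the 27 genes, against 61.9% of all genes tested. Ranked by this SD among all genes, the 27 genes had a median percentile of 85.6, the S-phase genes one of 76.0 and the mitotic genes one of 89.0. *Mcm7*, *Pcna*, *Cdt1* and *Cdkn1b* were below the middle of all genes, at percentiles of 37.0 to 41.3.

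The order of the pools was shared by most of these genes, a pattern described after the values had been seen and given without a test. L1-Tg pool 3 was the highest pool of its genotype in 22 of the 27 genes, against 32.9% of all genes tested. WT pool 1 was the highest of its genotype in 20, against 42.6% of all genes. Both held in 18 of the 27 genes, against 18.4% of all genes, and this joint pattern appeared in 9 of the 13 S-phase and 8 of the 10 mitotic genes. The genes are not independent of each other, since all were read from the same 6 arrays. The 9 genes outside the joint pattern were *Tyms*, *Cdt1*, *Mcm7*, *Rrm2*, *Cdk1*, *Birc5*, *Ccnd2* and both inhibitors.

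**Figure D3:**
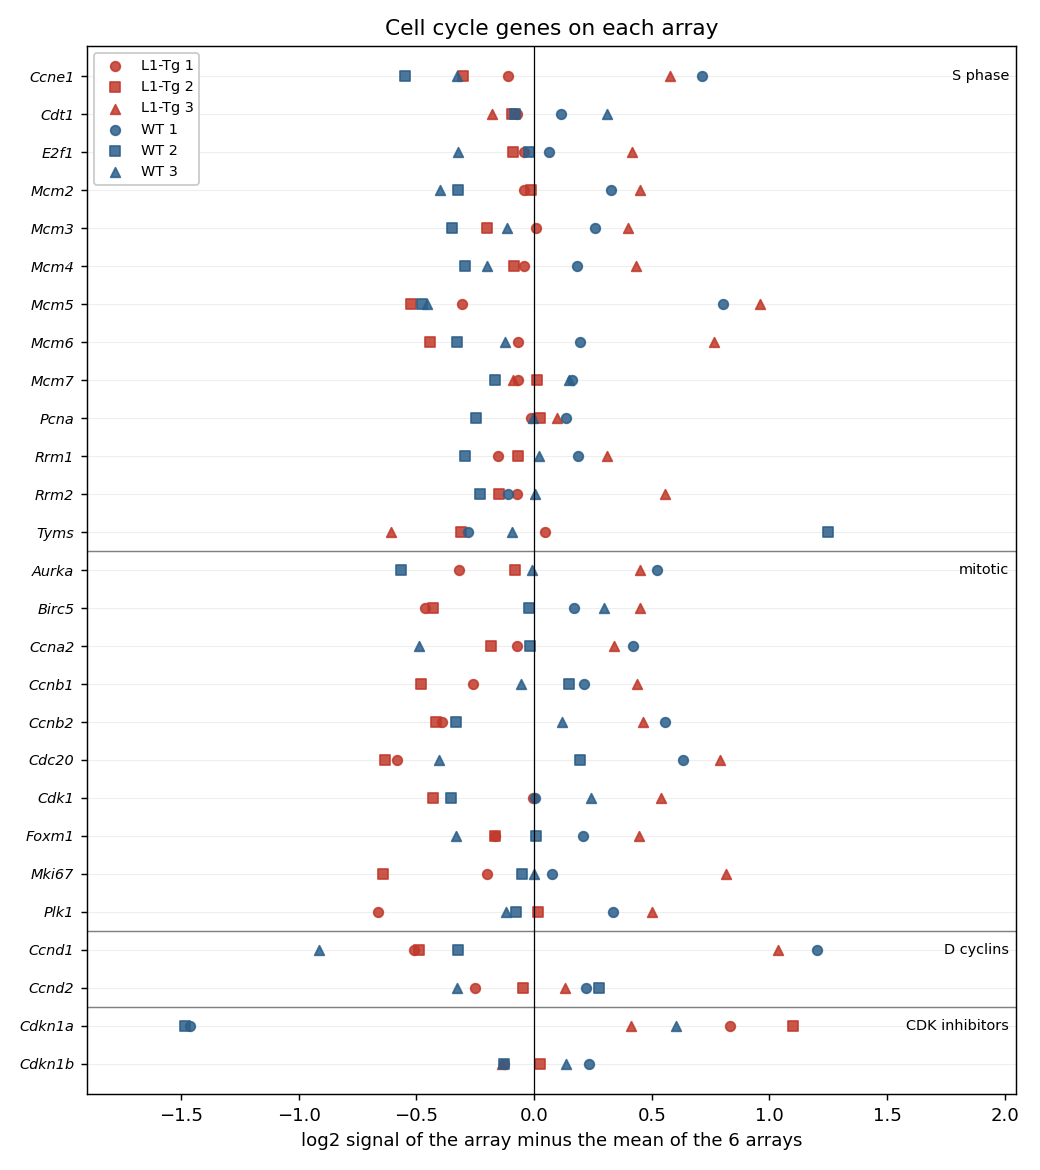
Log2 signal of each array minus the mean of the 6 arrays (x axis) for the 27 cell cycle genes tested (y axis), grouped by role; colours give the genotype and marker shapes the pool. L1-Tg pool 3 and WT pool 1 lie to the right in most S-phase and mitotic genes, while *Tyms* is highest in WT pool 2 and *Cdkn1a* is lowest in WT pools 1 and 2.

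As a median over the S-phase genes, the signal stood -0.07, -0.09 and 0.42 from the mean of the 6 arrays in the L1-Tg pools, and 0.18, -0.29 and -0.12 in the WT pools. For the mitotic genes these medians were -0.29, -0.42 and 0.46 in the L1-Tg pools and 0.27, -0.04 and -0.03 in the WT pools. The median over all genes tested stayed between -0.03 and 0.05 on every array. The share of spots well above background was 59.2%, 56.1% and 56.0% in the L1-Tg pools and 53.1%, 57.7% and 55.6% in the WT pools. It was lowest in WT pool 1 and nearly equal in L1-Tg pools 2 and 3, whose mitotic medians were -0.42 and 0.46. The part of this share in the order of the pools was not tested. The summed hepatocyte markers, 8 of 8 tested, ranged from 4659 to 5597 in the L1-Tg pools and from 5234 to 5468 in the WT pools, and *Alb* and *Cyp2e1*, which led them, differed by -0.10 each.

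**Figure D4:**
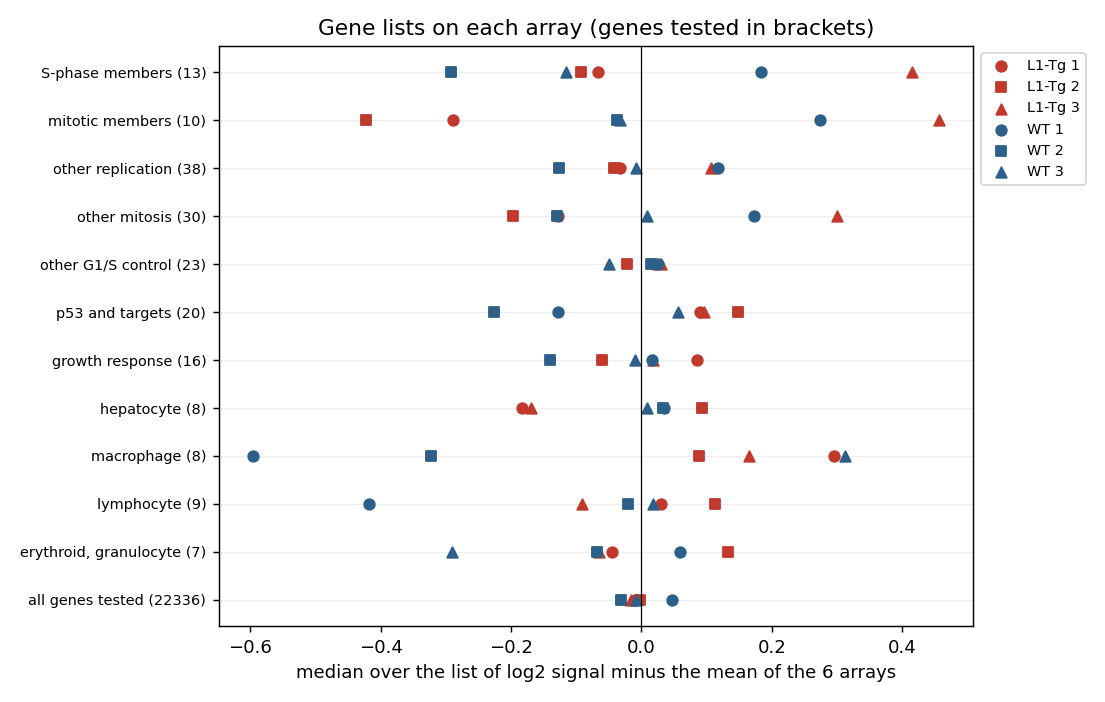
Median over each gene list of the log2 signal of an array minus the mean of the 6 arrays (x axis) for the cell cycle genes, the other lists of the pathway and the cell type markers (y axis, number of genes tested in brackets); colours give the genotype and marker shapes the pool. For the mitotic genes L1-Tg pool 3 (0.46) and WT pool 1 (0.27) stand apart to the right, and for the macrophage markers WT pools 1 and 2 stand to the left.

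The wider set of replication genes, 42 genes of which 38 were tested, had 24 means higher in L1-Tg and 14 lower, with a median of 0.06. In 18 of the 38, L1-Tg pool 3 and WT pool 1 were both the highest of their genotype. Of the list, 1 gene passed the adjusted threshold. *Lig1*, the DNA ligase that joins Okazaki fragments, was at 4.11, 4.19 and 4.53 in the L1-Tg pools and at 2.33, 1.99 and 2.26 in the WT pools, with no overlap. The difference was 2.08 (SE 0.15, adjusted p = 0.0104 in limma). It rests on 1 probe, and the adjusted p exceeded 0.05 without L1-Tg pool 2 (0.0585), without WT pool 1 (0.0533), with no filter on dim probes (0.0630), with the replicate block (0.0661) and in the methods' t-test (0.191). By comparison, the differences of the 6 helicase subunits above lay between -0.10 and 0.26.

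*Tk1*, the thymidine kinase of S phase, was at 3.17, 3.26 and 3.16 in the L1-Tg pools and at 3.73, 3.69 and 3.63 in the WT pools, so all L1-Tg pools lay below the WT pools (difference -0.48, SE 0.09, adjusted p = 0.250 in limma). *Mcm10*, which helps to open the origin, was at 4.68, 5.25 and 5.07 against 5.89, 5.76 and 4.92. Of 48 further mitosis genes, 30 were tested, with 15 means on either side and a median of -0.01, and 17 of the 30 had L1-Tg pool 3 and WT pool 1 both highest. *Spc25*, a subunit of the NDC80 complex of the kinetochore, was at 2.77, 3.02 and 3.06 against 3.41, 3.36 and 3.31, without overlap (difference -0.41, adjusted p = 0.437 in limma). Its partner *Spc24* differed by 0.43 and *Ccnf*, cyclin F, by -0.47, both at an adjusted p of 0.595.

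The other genes of G1/S control did not follow the order of the pools: L1-Tg pool 3 and WT pool 1 were both highest in 4 of the 23 tested. Their means were higher in L1-Tg in 12 and lower in 11, with a median of 0.01. *E2f3*, an activating E2F, was at 0.12, 0.16 and 0.16 in the L1-Tg pools and at -0.25, -0.11 and -0.11 in the WT pools (difference 0.30, adjusted p = 0.486 in limma). The repressor *E2f7* and the E2F partner *Tfdp2* had every L1-Tg pool below every WT pool, with differences of -0.23 and -0.35. A list of the growth response held immediate early genes together with growth factors and receptors, and of its 18 genes 16 were tested, 10 with the higher and 6 with the lower mean in L1-Tg. In 5 of the 16 all L1-Tg pools lay above all WT pools (7.8% of all genes), and in 1 all lay below. In 2 the unadjusted p in limma was under 0.05 with the higher mean in L1-Tg (4.92% of all genes), and 0 passed the adjusted threshold. The 3 named here are subunits of the AP-1 family or related to it. *Atf3* was at 0.54, -1.24 and -1.42 against -2.20, -2.54 and -1.62, and *Jun* at 3.82, 2.69 and 2.56 against 2.41, 1.54 and 2.55. In both, L1-Tg pool 1 stood far above the others, and their adjusted p were 0.554 and 0.599. *Fosb* was at -1.51, -1.40 and -1.62 against -1.87, -1.73 and -1.70, with a difference of 0.26.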

How the data were processed

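Cy3 signals of liver RNA were read on 6 one-color arrays, 3 per genotype. Images were quantified by the authors in Agilent Feature Extraction (version 10.10.1.1). The deposited processed signal is a linear intensity, corrected for background inside each array, with no scaling across arrays. The authors also deposited marks of 0 or 1 for spots well above background and for outlier spots, and a matrix of intensities equal to the processed signals times 1 factor per array (2.46 to 2.98), whose origin is not given in the sources used here. Groups follow the labelled genotype.

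Control spots (3671 of 62976) were left out, outlier spots set to missing, and spots of 432 repeated probes averaged. Of 55681 probes, 27235 were matched to a symbol through RefSeq accessions. Unmatched probes were grouped by their systematic name, and each such name counts as a gene in the numbers and shares of all genes. Log2 signals were centred on the array's 75th percentile. Probes were kept if every array of at least 1 genotype measured them well above background, and the kept probe with the highest mean stood for its gene. The resulting 22336 genes were fitted in R 4.3.3 with lmFit and eBayes (limma 3.58.1). Tests were two-sided, with Benjamini-Hochberg adjustment over all 22336 genes and a threshold of 0.05. The number of arrays limits the precision. The fit was tested on simulated data. Promoters are RefSeq windows (GRCm38.p6), searched with Python 3.11.15. No protein sequences were used.

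The cell cycle genes and all lists were chosen with earlier results of these data known. Named are every cell cycle gene, the 3 genes with the smallest p of each further pathway list and any past the adjusted threshold, and the 2 brightest of each marker list. *Cd8a* falls outside this rule and was chosen after its values were seen. 1 marker is not reported here. Of 228 listed genes, 225 were matched to the array; *Skp2*, *Cd68* and *Ahsp* were not. The alternatives were the array median, no scaling, quantile normalization, the deposited matrix, a normexp correction (offset 50), no filter, detection required on all 6 arrays, averaging a gene's probes, the methods' t-test, other index thresholds, a replicate block and leaving out each pool. The numbers of the pools were not taken to pair them.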

Additional observations from a re-analysis of the deposited data

How the results depend on the processing

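The count of 0 cell cycle genes past the adjusted threshold in limma stayed 0 under every alternative for all samples and ran from 0 to 1 with a pool left out, where *Cdkn1a* passed without WT pool 3. The count with an unadjusted p under 0.05, which is 1, was 0 in the methods' t-test, 2 with no filter and 0 to 4 with a pool left out. Groups without overlap, 0 in the report, numbered 2 with no filter and 2 to 6 with a pool left out, when fewer pools remain to overlap. The count past the difference index, which is 2, was 1 with the array median, the deposited matrix, no scaling or a further 2-fold criterion, 0 at a modulus above 1, 4 with normexp, 5 with no filter and 2 to 7 with a pool left out. The median difference ranged from -0.08 to 0.28 for the S-phase and from -0.40 to 0.09 for the mitotic genes with a pool left out. With a replicate block, which pairs pools by number, the counts were 0 and 1, the count of all genes past the adjusted threshold was 11 in place of 31, and the medians were 0.11 and -0.06. Pools of the same number deviated together with correlations of -0.16, 0.11 and 0.02 across genes, and pools of different numbers with -0.17 to 0.17. With 3 pools per genotype these values cannot settle whether the numbers pair the pools. Among single cell cycle genes 39 of 432 alternative values reversed, in 14 genes, and the cause was not tested. *Mki67* (-0.02) was 0.0914 with the array median, 0.0198 with the deposited matrix, 0.00469 with the mean of the probes, 0.0262 with no scaling, 0.0958 with normexp, 0.0230 with quantile normalization and -0.43 to 0.30 with a pool left out. With normexp *Aurka* was -0.0965, *Ccna2* -0.0189 and *Foxm1* -0.0414. With the array median, which puts the median difference of all genes at 0.09 in place of -0.02, *Mcm7* was 0.0118, *Plk1* 0.0154, *Alb* 0.00708, *Cyp2e1* 0.00984 and the lymphocyte marker *Nkg7* 0.0605, and *Nkg7* was 0.17 with the mean of the probes. With a pool left out, differences of either sign were reached by *Aurka* (-0.24 to 0.30), *Ccna2* (-0.17 to 0.28), *Ccnd1* (-0.49 to 0.63), *Ccne1* (-0.15 to 0.49), *Cdk1* (-0.18 to 0.30), *Foxm1* (-0.13 to 0.20), *Mcm3* (-0.0270 to 0.30), *Mcm5* (-0.37 to 0.51), *Mcm6* (-0.17 to 0.44), *Pcna* (-0.0273 to 0.16), *Plk1* (-0.37 to 0.21), *Rrm1* (-0.0805 to 0.17), *Cdkn1c* (-0.0736 to 0.13) and *Csf1r* (-0.12 to 0.16). Probes near background limit the genes that can be compared.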
